A study of Mus musculus with 4 samples.

Results

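The genes examined were 10 inflammatory effector genes of macrophages, namely Tnf, Il1a, Il1b, Il1rn, Il6, Il10, Il12b, Il18, Nos2 and Ptgs2. They were 10 of the 55450 genes in the GENCODE M21 annotation of the mouse build mm10, and they were chosen by name. Each gene was described by every accessible region that overlapped its body or the 20 kb on either side by at least 1 bp. This gave 59 regions of 71243 in the series, built from 193 peaks. No region lay in the windows of more than 1 of these genes.

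Chromatin accessibility was measured by ATAC-seq, in which the Tn5 transposase cuts open DNA, in bone marrow-derived macrophages (BMDMs) grown in medium conditioned by L929 cells. The study stated 6 to 8 days for BMDM culture in general, and a single day within that range for ATAC-seq. Every mouse carried floxed alleles of H3f3a and of H3f3b, which both encode histone H3.3 (fl/fl at each gene). WT BMDMs had no Cre, and cKO BMDMs also carried LysM cre/cre. Each genotype had 2 biological replicates, no cytokine or microbial stimulus was named for any library, and the donor mice were 8 to 10 weeks old on a C57BL/6 background. Cre sits in the Lyz2 (LysM) locus and was present on both alleles in cKO mice only, so an effect of H3.3 loss cannot be told apart from one of Cre or of the altered Lyz2 locus.

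TNF, the IL-1 cytokines, IL-6 and the IL-12 subunit p40 are alarm signals that macrophages make after microbial sensing, mostly through the transcription factors NF-kB and AP-1. IL-10 and the IL-1 receptor antagonist oppose them. Nos2 encodes the inducible nitric oxide synthase, and Ptgs2 encodes cyclooxygenase-2, the inducible enzyme of prostaglandin synthesis. In resting macrophages many of these genes have open promoters and distal elements before they are transcribed, because lineage factors such as PU.1 and C/EBP open them during differentiation.

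Each library had its own peak list, with 51955 to 64939 peaks. For every peak the authors' caller gave an area, which is the area under a curve of significance and depends on depth. Each area was therefore ranked within its own list and given as a percentile, where 100 is the strongest peak. The lowest area in each list was just above 200, so a site slightly weaker than that is missing from a list without being closed. In each genotype, replicate 2 had more peaks than replicate 1. At the deleted genes, a region over exon 2 of H3f3a (chr1:180811715-180812055) was called in both WT lists, at percentiles 5.02 and 19.1, and in neither cKO list. The body of H3f3b (chr11:116023771-116024892) was called in all 4 lists and was weaker in cKO, at 87.0 and 81.4 against 94.2 and 95.5 in WT. It thus remained a strong peak in both cKO lists. The study described H3f3b deletion as variable, complete in some cKO samples and partial in others. How complete it was in these libraries was not tested. The promoters of 9 of 10 macrophage markers were called in all 4 lists. Spi1 was the exception, with no peak in any list. The Lyz2 promoter was at 96.1 and 99.0 in WT and at 57.4 and 59.4 in cKO. Those of Csf1r (73.7 and 85.3 in WT against 56.4 and 61.4 in cKO) and Mertk (89.3 and 92.8 against 73.9 and 79.1) were also lower in both cKO libraries, and that of Cd68 was higher (91.2 and 89.7 against 92.7 and 92.7). None of the 5 T cell, 3 erythroid or 3 fibroblast promoters was called in any list. Of 4 B cell, 4 neutrophil and 3 dendritic cell promoters, 1, 1 and 2 were called in all 4 lists, and that of the neutrophil gene Ly6g was called in the cKO lists only, at 30.3 and 17.8. The B cell promoter was that of Ms4a1, at 3.56 and 23.5 in WT against 28.5 and 35.5 in cKO. The neutrophil promoter of Csf3r was at 60.7 and 58.9 against 57.3 and 57.0. Of the dendritic cell promoters, Flt3 was at 24.2 and 37.3 against 47.0 and 53.9, and Zbtb46 was at 69.0 and 74.1 against 39.6 and 56.5. Their part in the results was not tested. In a bulk library, a change in the share of cells with an open site and a change within each cell cannot be told apart.

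At the 10 genes, 20 of the 59 regions were gained, lost or past a test of their area, and 2 of these 20, at Nos2 and Ptgs2, lay in a promoter window of the genes, where 9 of the 59 regions lay. The matching share over all promoters in the series is not given. Of the 59 regions, 38 (64.4%) were called in all 4 lists, against 62.9% of all regions. A region called in both cKO lists and neither WT list was named gained, and one called in both WT lists and neither cKO list was named lost. By this rule 5 regions (8.47%) at 4 genes were gained, where 3.72% of all regions were gained, and 3 regions (5.08%) at 2 genes were lost, where 7.25% of all regions were lost. The gained regions were at Tnf, Il1a, Il12b and Il18 (2 regions), and the lost regions were at Il10 (2 regions) and Nos2. The remaining 13 regions had other patterns. With the lists set to equal length, all 5 gained regions and 1 of the 3 lost regions kept their call, and none of the 8 kept it when only the stronger peaks, those over the median area, were used.

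**Figure D1:**
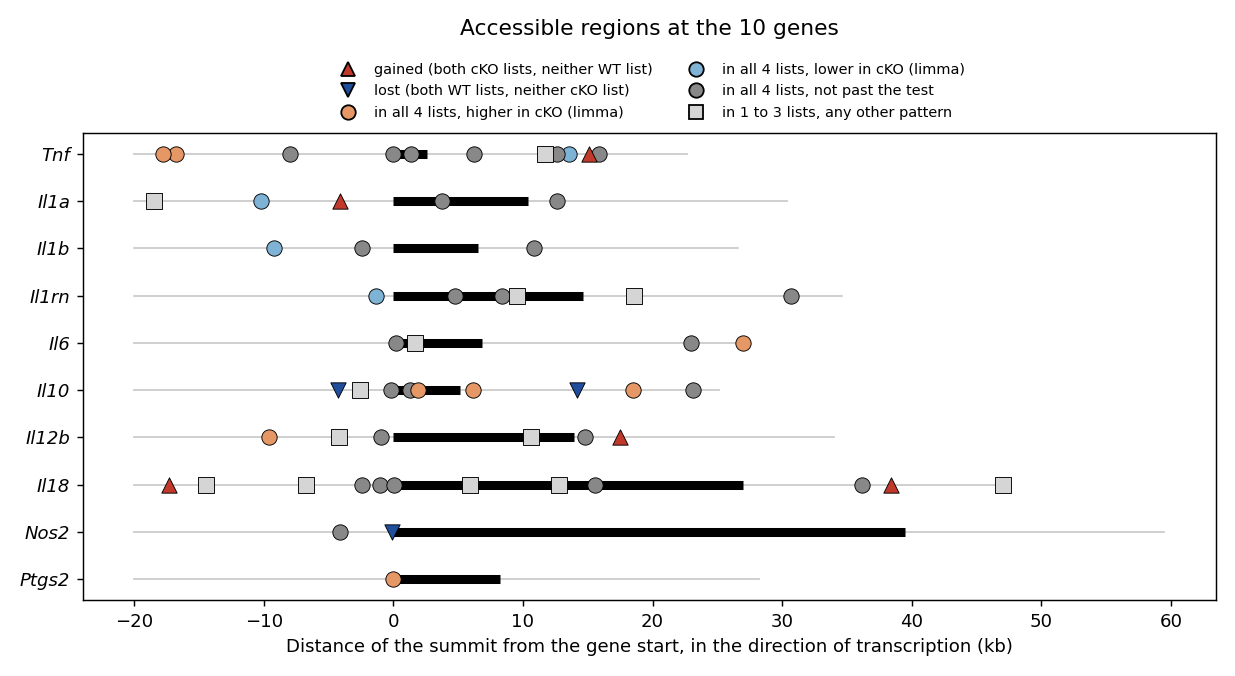
Accessible regions at the 10 genes. The horizontal axis is the distance in kb of each region's summit from the annotated start of the gene, positive in the direction of transcription, black bars are gene bodies, and grey lines are the windows searched. The 59 regions are marked by their calls: 5 gained, 3 lost, 8 higher and 4 lower in cKO, 26 in all 4 lists and not past the test, and 13 of other patterns.

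For the 38 regions in all 4 lists, the log2 peak area was compared with limma after quantile normalization, in a fit over all 44820 such regions with Benjamini-Hochberg adjustment. Accessibility was higher in cKO at 8 regions (21.1%) of 5 genes and lower at 4 regions (10.5%) of 4 genes at an adjusted p below 0.05. Over all regions tested, 18.3% were higher and 18.7% were lower, so that calls of either kind were common. The median log2 difference, cKO minus WT, was 0.07 over the 38 regions and 0.00498 over all. Quantile normalization had put 49.4% of all calls on the higher side. Centring each library on its median put 62.2% there, with 11419 higher and 6948 lower of the 44820 regions. At the 10 genes it gave 10 higher and 4 lower. Normal scores of the percentile put 34.1% there, with 3036 higher and 5862 lower over all, and 3 and 3 at the 10 genes. By percentile alone, both cKO libraries lay above both WT libraries at 7 of the 38 regions (18.4%, against 22.2% of all regions) and below at 8 (21.1%, against 35.1%). These counts were not stable, since lists of equal length gave 17 above and 11 below. Shares over all regions are not given for that setting or the next ones. A shift of the whole series therefore cannot be told apart from one at these genes. Without WT replicate 1 or cKO replicate 2, 19 or 24 lay below, and without WT replicate 2 or cKO replicate 1, 14 or 20 lay above. Omitting a library leaves fewer values to separate and admits more regions, so part of these rises is built into the rule. A region that did not pass the limma test is not thereby shown to be alike in the genotypes.

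**Figure D2:**
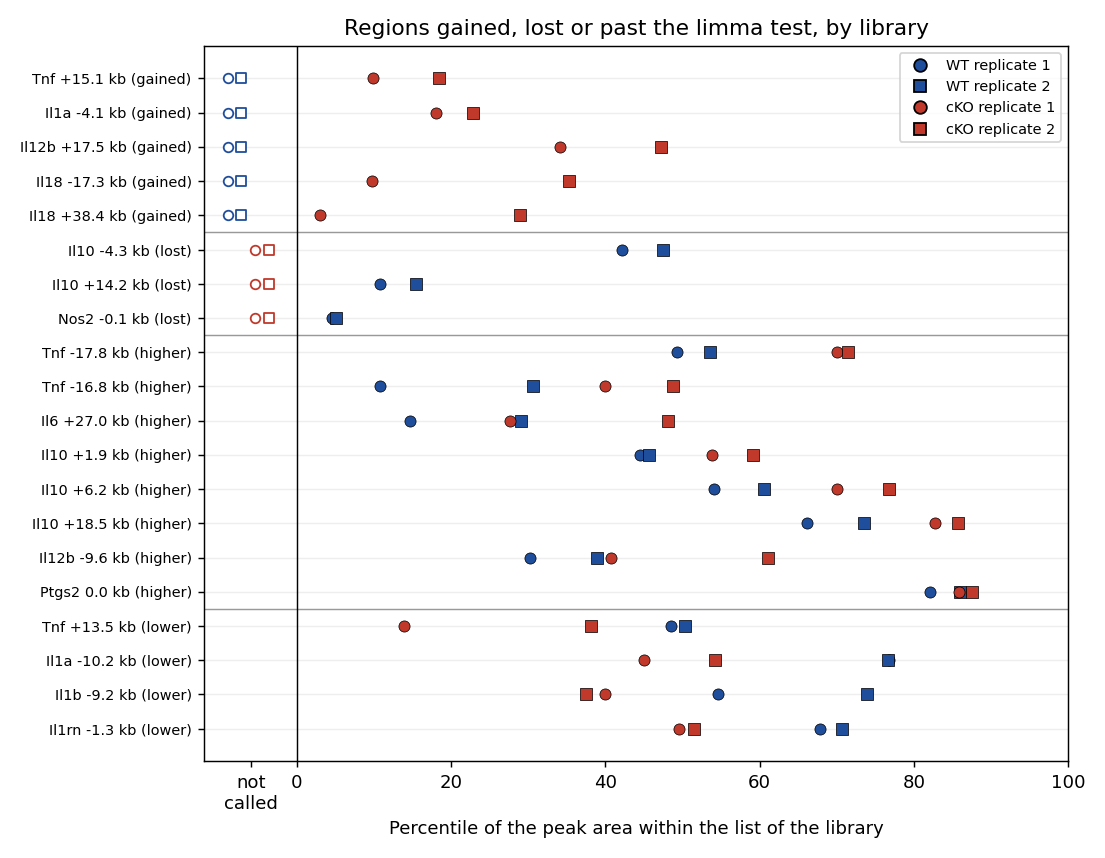
Percentile of the peak area in each library for the 20 regions that were gained, lost or past the limma test. Each row is a region named by its gene and its distance from the gene start in kb, blue marks are WT and red marks are cKO, circles are replicate 1 and squares are replicate 2, and open marks at the left stand for lists with no peak. The gained and lost regions lay between percentiles 3.01 and 47.4, below the middle of their lists.

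Tnf encodes tumour necrosis factor (ENSMUSG00000024401.14, chr17:35199381-35202007, reverse strand) and had 11 regions, the second highest number. Its promoter (chr17:35201738-35202271) was called in every list, at percentiles 39.6 and 58.6 in WT against 52.0 and 51.0 in cKO. The groups overlapped, and the log2 difference in area was 0.17 ± 0.18 (SE, limma, adjusted p = 0.481). The region over the gene body (chr17:35200264-35200849), centred in an exon, lay at 65.3 and 67.4 in WT against 63.6 and 73.4 in cKO, also with overlap.

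Changed regions flanked the Tnf gene at a distance. Upstream, a region 17.8 kb from the start (chr17:35219567-35220321), in the promoter class of the gene model Gm16181, lay at percentiles 49.3 and 53.6 in WT against 70.0 and 71.4 in cKO. Both cKO libraries were above both WT libraries. The log2 difference was 0.85 ± 0.10 (SE, limma, adjusted p = 0.00199), and this call held under all 10 alternatives that tested it. Its neighbour at 16.8 kb upstream (chr17:35218534-35219278, intergenic) lay at 10.7 and 30.7 in WT against 39.9 and 48.8 in cKO, again without overlap, with a log2 difference of 0.90 ± 0.15 (SE, limma, adjusted p = 0.00591). That call was lost with normal scores of the percentile (limma, adjusted p = 0.0833). Downstream of Tnf, 13.5 kb from its start, the promoter region of the leukocyte gene Lst1 (chr17:35188164-35188659) lay at 48.5 and 50.4 in WT against 13.9 and 38.2 in cKO. It was lower in cKO in every pairing of libraries, by -0.69 ± 0.19 (SE, limma, adjusted p = 0.0299). The Lst1 promoter call was lost without WT replicate 1 (limma, adjusted p = 0.141), without WT replicate 2 (limma, adjusted p = 0.0534) and without cKO replicate 1 (limma, adjusted p = 0.116). A gained region 15.1 kb downstream of the start (chr17:35186718-35187055), in an intron of Lst1, was at 9.87 and 18.4 in the cKO lists, with areas of 247 and 302 against the limit of 200. Thus regions that were higher, lower and gained in cKO all lay within 20 kb of Tnf, and none of them overlapped its promoter.

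The upstream region with the more stable call is shown because its summit window held matches to the AP-1 motif (TGANTCA) and to the interferon-stimulated response element (ISRE). Here and below, windows are 201 bp around the summit of the strongest peak, plus strand of mm10 (RefSeq assembly GRCm38.p6), and capitals mark matches on either strand to any of the 7 motifs searched.
Tnf, 17.8 kb upstream, chr17:35219683-35219883: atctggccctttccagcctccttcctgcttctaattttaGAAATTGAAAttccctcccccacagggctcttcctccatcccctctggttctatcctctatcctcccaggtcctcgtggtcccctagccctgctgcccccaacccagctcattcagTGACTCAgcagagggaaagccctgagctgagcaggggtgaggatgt

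Il1a and Il1b encode IL-1 alpha and IL-1 beta, the agonists of the IL-1 receptor, and lie close together on chromosome 2. Il1a (ENSMUSG00000027399.1, chr2:129299610-129309972, reverse strand) had 5 regions and no peak in its promoter in any list. A region 10.2 kb upstream (chr2:129319890-129320475, intergenic) was at percentiles 76.8 and 76.6 in WT against 45.0 and 54.2 in cKO. The WT libraries differed by less than 1 percentile and both cKO libraries were below them. The log2 difference of -0.98 ± 0.10 (SE, limma, adjusted p = 0.00120) was the largest decrease among the 38 regions. The call held under all 10 alternatives. In those fitted to log2 area, the difference lay between -1.10 and -0.90, and normal scores of the percentile are on another scale. A gained region lay 4.11 kb upstream (chr2:129313992-129314238), at 18.0 and 22.9 in cKO, with areas of 296 and 333. Within the Il1a body, a region in an exon of the transcript Gm14023 (chr2:129306047-129306359) lay at 35.4 and 41.6 in WT against 41.7 and 46.0 in cKO. The lowest cKO value was barely above the highest WT value, and the log2 difference of 0.30 ± 0.14 (SE) did not pass (limma, adjusted p = 0.130).

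The gained region and the lower region of Il1a are shown because they lay upstream of the same gene and moved in opposite directions. The gained window held 2 matches to C/EBP (TTGCNNAA), 1 to PU.1 (GAGGAAGT) and 1 to RUNX (AACCACA), and the window that was lower in cKO held 1 match to AP-1. The PU.1 match directly followed the first C/EBP match.
Il1a, 4.11 kb upstream, gained, chr2:129313977-129314177: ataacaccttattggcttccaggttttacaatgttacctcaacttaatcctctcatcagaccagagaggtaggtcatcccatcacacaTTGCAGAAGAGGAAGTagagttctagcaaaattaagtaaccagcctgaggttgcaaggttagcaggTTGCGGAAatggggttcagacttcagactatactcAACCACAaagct
Il1a, 10.2 kb upstream, lower, chr2:129320053-129320253: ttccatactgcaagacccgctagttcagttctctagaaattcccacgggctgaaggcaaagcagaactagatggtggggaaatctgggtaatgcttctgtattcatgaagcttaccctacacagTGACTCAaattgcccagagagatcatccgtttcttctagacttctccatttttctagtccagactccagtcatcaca

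Il1b (ENSMUSG00000027398.13, chr2:129364570-129371139, reverse strand) had 3 regions, all of them in every list, and each of them had lower percentiles in both cKO libraries. Its promoter window held no peak. The strongest region, 2.38 kb upstream in an exon of the antisense gene Il1bos (chr2:129373152-129373848), lay at 82.2 and 85.8 in WT against 81.1 and 81.7 in cKO. This was a difference of -0.08 ± 0.07 on the log2 scale (SE, limma, adjusted p = 0.402). A region 9.24 kb upstream (chr2:129380236-129381310, intergenic) lay at 54.6 and 73.9 in WT against 39.9 and 37.5 in cKO. The log2 difference was -0.88 ± 0.22 (SE, limma, adjusted p = 0.0218). The peaks behind this value differed in extent, with 2 peaks in WT replicate 1 and cKO replicate 2 and 1 in the other libraries. The call was lost without WT replicate 2 (-0.61, limma, adjusted p = 0.0920) and without cKO replicate 2 (-0.66, limma, adjusted p = 0.0716). The third region, 10.8 kb downstream of the start (chr2:129360120-129360534), lay at 57.2 and 60.7 in WT against 40.8 and 56.4 in cKO, and it did not pass (limma, adjusted p = 0.162).

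Il1rn encodes the antagonist that blocks the IL-1 receptor (ENSMUSG00000026981.15, chr2:24336853-24351494, forward strand) and had 6 regions. The region 1.35 kb upstream of the first start (chr2:24335207-24335821, intergenic) was at percentiles 67.8 and 70.7 in WT against 49.6 and 51.5 in cKO. The replicates lay within 3 percentiles of each other and the genotypes did not overlap. The log2 difference of -0.62 ± 0.11 (SE, limma, adjusted p = 0.00694) held under all 10 alternatives. An internal promoter of the gene, 8.42 kb downstream (chr2:24344947-24345497), lay at 56.8 and 66.3 in WT against 55.7 and 63.1 in cKO, with a log2 difference of 0.02 ± 0.10 (SE, limma, adjusted p = 0.905). The Il1rn window held 1 match to the NF-kB consensus.
Il1rn, 1.35 kb upstream, lower, chr2:24335408-24335608: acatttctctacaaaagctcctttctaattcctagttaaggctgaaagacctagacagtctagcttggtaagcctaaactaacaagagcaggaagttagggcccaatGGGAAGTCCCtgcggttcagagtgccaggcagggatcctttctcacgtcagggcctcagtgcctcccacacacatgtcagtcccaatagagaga

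Il6 encodes interleukin-6, a cytokine that drives the acute phase response (ENSMUSG00000025746.11, chr5:30013114-30019981, forward strand), and had 4 regions. The promoter (chr5:30012773-30013542) lay at percentiles 60.8 and 69.3 in WT against 55.1 and 62.6 in cKO. The genotypes overlapped, and the log2 difference was -0.14 ± 0.10 (SE, limma, adjusted p = 0.275). A region 23.0 kb downstream of the start (chr5:30035942-30036292) was lower in both cKO libraries, at 46.0 and 54.6 against 55.7 and 62.7, without passing the test (limma, adjusted p = 0.134). The next region, 27.0 kb downstream (chr5:30039911-30040203), lay at 14.7 and 29.1 in WT against 27.7 and 48.1 in cKO. These percentiles overlapped, while the log2 difference of 0.65 ± 0.17 (SE) passed (limma, adjusted p = 0.0276). The Il6 call was lost without WT replicate 1 (limma, adjusted p = 0.166), WT replicate 2 (limma, adjusted p = 0.0795) or cKO replicate 2 (limma, adjusted p = 0.0835), and with normal scores of the percentile.

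Il10 encodes interleukin-10, which restrains macrophage activation (ENSMUSG00000016529.5, chr1:131019845-131024974, forward strand). It had 9 regions, of which 3 were higher in cKO and 2 were lost, the most calls of the 10 genes. Its promoter (chr1:131019384-131020060) did not pass the test, at percentiles 49.8 and 59.0 in WT against 53.6 and 59.0 in cKO (log2 difference 0.18 ± 0.10, SE, limma, adjusted p = 0.223).

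All 3 Il10 regions that rose lay downstream of the start. The strongest, 18.5 kb downstream (chr1:131037988-131038561, intergenic), lay at 66.1 and 73.5 in WT against 82.8 and 85.7 in cKO, with a log2 difference of 0.75 ± 0.08 (SE, limma, adjusted p = 0.00118). The next, 6.17 kb downstream and just past the gene end (chr1:131025669-131026319), lay at 54.1 and 60.5 in WT against 70.1 and 76.7 in cKO, with a log2 difference of 0.75 ± 0.09 (SE, limma, adjusted p = 0.00179). Both calls held under all 11 alternatives. The region 1.91 kb into the gene (chr1:131021554-131021989, intron) lay at 44.5 and 45.6 in WT against 53.8 and 59.2 in cKO, by 0.53 ± 0.13 (SE, limma, adjusted p = 0.0213). In none of the 3 did the genotypes overlap. The intronic call was lost without WT replicate 2 (limma, adjusted p = 0.109) and without cKO replicate 1 (limma, adjusted p = 0.0661).

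The lost regions of Il10 flanked the gene. One lay 4.29 kb upstream (chr1:131015385-131015707) and was at 42.1 and 47.4 in WT, with areas of 544 and 634, and in neither cKO list. The region stayed lost with lists of equal length. The other lay 14.2 kb downstream of the start (chr1:131033876-131034126), at 10.8 and 15.5 in WT with areas of 259 and 293, and was not lost with lists of equal length. The Il10 window therefore held 8 and 9 called regions in WT and 6 in each cKO library.

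The Il10 region 4.29 kb upstream and the one 18.5 kb downstream are shown as the strongest lost region at the 10 genes and the region with the smallest adjusted p. The lost window held 1 match each to NF-kB and C/EBP. The higher window held 2 AP-1 matches and 1 match each to C/EBP and NF-kB, and AP-1 matches were found in the windows of all 3 Il10 regions that were higher in cKO, of the lost region 14.2 kb downstream and of an intronic region (chr1:131020996-131021266) that did not pass the test.
Il10, 4.29 kb upstream, lost, chr1:131015456-131015656: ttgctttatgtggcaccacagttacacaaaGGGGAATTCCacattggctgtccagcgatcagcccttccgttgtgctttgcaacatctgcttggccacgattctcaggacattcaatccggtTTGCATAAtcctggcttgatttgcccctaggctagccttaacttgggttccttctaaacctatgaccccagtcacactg
Il10, 18.5 kb downstream, higher, chr1:131038220-131038420: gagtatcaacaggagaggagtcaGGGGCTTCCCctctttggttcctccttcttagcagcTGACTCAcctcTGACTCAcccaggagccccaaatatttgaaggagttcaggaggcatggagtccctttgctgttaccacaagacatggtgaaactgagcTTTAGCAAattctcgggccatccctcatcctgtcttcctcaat

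Il12b encodes p40, the subunit that IL-12 and IL-23 share (ENSMUSG00000004296.14, chr11:44400063-44414033, forward strand), and had 6 regions. No region of this gene was lower in cKO by the test or lost. The region that reached into its promoter window, centred 0.972 kb upstream (chr11:44398816-44399285), lay at percentiles 58.9 and 67.0 in WT against 57.7 and 66.6 in cKO (log2 difference 0.07 ± 0.10, SE, limma, adjusted p = 0.598). A region 9.57 kb upstream (chr11:44390003-44390635) lay at 30.3 and 38.9 in WT against 40.7 and 61.1 in cKO, by 0.70 ± 0.17 (SE, limma, adjusted p = 0.0208). The cKO libraries were higher but far apart from each other. This call was lost without WT replicate 1 (limma, adjusted p = 0.0682), WT replicate 2 (limma, adjusted p = 0.0675) or cKO replicate 2 (limma, adjusted p = 0.0583). Just beyond the 3′ end of the gene, a strong region 14.8 kb from the start (chr11:44414561-44415339) lay at 79.0 and 85.7 in WT against 84.2 and 87.1 in cKO, by 0.22 ± 0.08 (SE, limma, adjusted p = 0.0759).

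The gained Il12b region lay 17.5 kb downstream of the start (chr11:44417419-44417719). It was at 34.2 and 47.2 in the cKO lists, with areas of 424 and 590, the highest of the 5 gained regions, and in neither WT list. Further regions were called in cKO more often than in WT. One, in an intron (chr11:44410515-44410855), was at 18.2 in WT replicate 2 and at 27.3 and 43.5 in cKO. Another, upstream (chr11:44395424-44395976), was called in cKO replicate 2 only, at 36.4. The number of called regions was 3 and 4 in WT against 5 and 6 in cKO. The gained window is shown as the strongest of its kind, and it held no match to any of the 7 motifs.
Il12b, 17.5 kb downstream, gained, chr11:44417470-44417670: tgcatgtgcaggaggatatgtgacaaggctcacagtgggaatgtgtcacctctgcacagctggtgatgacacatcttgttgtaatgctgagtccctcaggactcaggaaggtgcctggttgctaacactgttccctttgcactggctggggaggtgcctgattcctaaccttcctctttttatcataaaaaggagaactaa

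Il18 encodes interleukin-18, which caspase-1 activates by cleavage (ENSMUSG00000039217.13, chr9:50554827-50581840, forward strand). It had the most regions, at 12, and 5 of them were in all 4 lists. The region over its start (chr9:50554574-50555288) was strong in every library, at percentiles 77.5 and 81.7 in WT against 80.8 and 82.5 in cKO. The log2 difference of 0.16 ± 0.07 (SE) did not pass (limma, adjusted p = 0.102), although it did with areas centred on the median (limma, adjusted p = 0.0350). A second region in the promoter window, 1.02 kb upstream (chr9:50553536-50553958), lay at 44.3 and 55.1 in WT against 35.7 and 48.0 in cKO, and the groups overlapped (limma, adjusted p = 0.324). The intronic region 15.5 kb into the gene (chr9:50570223-50570498) also overlapped, at 25.9 and 22.8 against 7.75 and 27.3 (limma, adjusted p = 0.618).

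No Il18 region in all 4 lists passed the test. The gained regions were weak or uneven between the cKO replicates. The upstream one (chr9:50537338-50537587, 17.3 kb, intron of Bco2) was at 9.76 and 35.3, with areas of 247 and 444. The downstream one (chr9:50593039-50593300, 38.4 kb from the start) was at 3.01 and 28.9, with areas of 213 and 382. In both, cKO replicate 1 was close to the limit of 200. Called regions numbered 5 and 9 in WT against 8 and 10 in cKO, so the spread between WT replicates was larger than the difference between genotypes.

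Nos2 (ENSMUSG00000020826.8, chr11:78920787-78960254, forward strand) had the longest body of the 10 genes and only 2 regions. The promoter region (chr11:78920563-78920798), with its summit 0.134 kb upstream of the start, was called in both WT lists and in neither cKO list. It was among the weakest peaks of the WT lists, at percentiles 4.51 and 5.07 with areas of 224 and 227. The limit was 200, and with lists of equal length it was no longer a lost region. The other Nos2 region, 4.15 kb upstream (chr11:78916464-78916734), lay at 40.6 and 46.7 in WT against 38.5 and 45.9 in cKO, with overlap and a log2 difference of 0.07 ± 0.13 (SE, limma, adjusted p = 0.705). The promoter window is shown because it was the only member promoter called in one genotype, and it held 1 match to the NF-kB consensus.
Nos2, promoter, lost, chr11:78920553-78920753: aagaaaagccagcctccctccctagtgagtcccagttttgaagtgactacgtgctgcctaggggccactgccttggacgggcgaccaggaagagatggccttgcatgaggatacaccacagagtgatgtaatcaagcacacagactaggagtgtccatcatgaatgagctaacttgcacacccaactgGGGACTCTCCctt

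Ptgs2 (ENSMUSG00000032487.8, chr1:150100031-150108227, forward strand) had 1 region, the promoter that it shares with the antisense gene Ptgs2os (chr1:150099603-150100424). It was the strongest promoter of the 10 genes, at percentiles 82.0 and 85.9 in WT against 85.9 and 87.5 in cKO. The genotypes overlapped. The log2 difference of 0.20 ± 0.06 (SE) was the smallest that passed (limma, adjusted p = 0.0436). Leaving out any single library ended the call, with adjusted p-values (limma) of 0.206 and 0.0718 without WT replicates 1 and 2 and 0.127 and 0.0862 without cKO replicates 1 and 2.

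**Figure D3:**
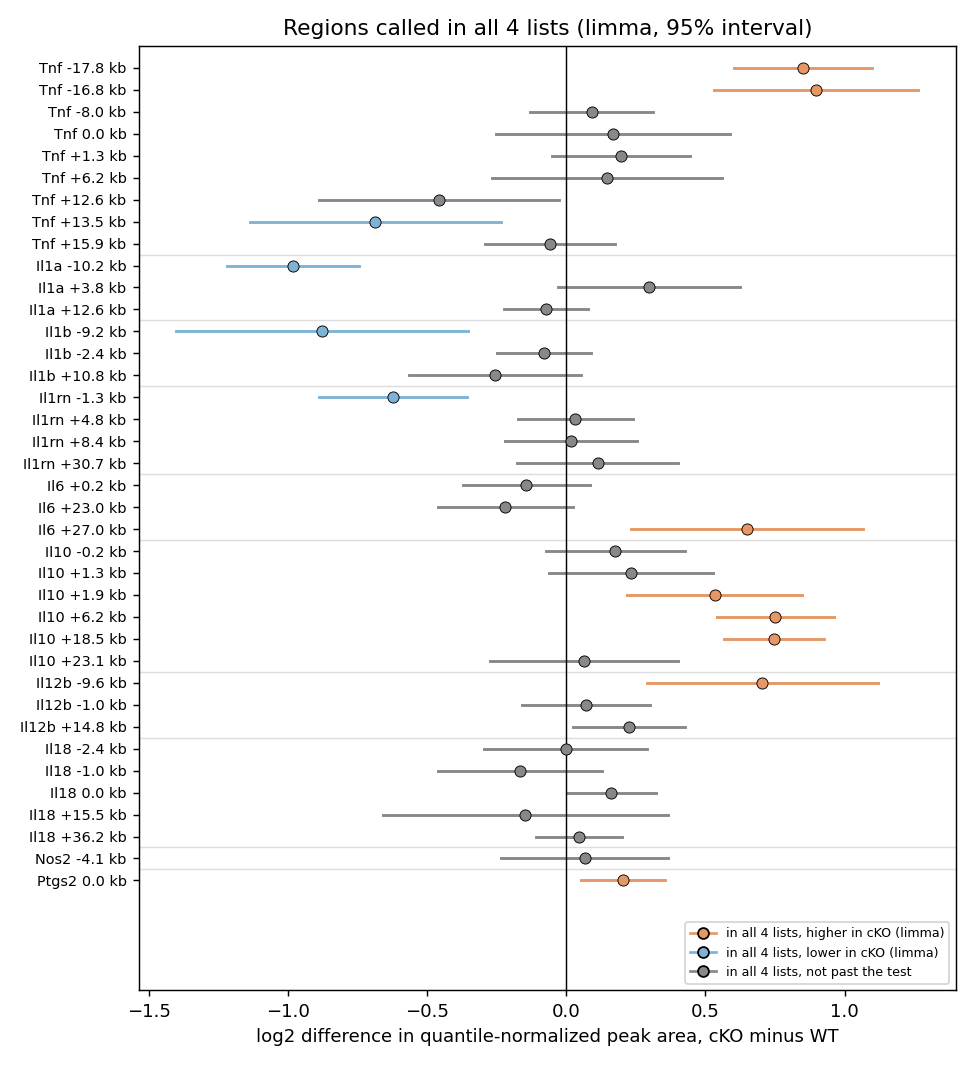
Difference in log2 quantile-normalized peak area, cKO minus WT, for the 38 regions called in all 4 lists, grouped by gene and ordered by distance from the gene start in kb. Points are limma estimates with 95% intervals from 2 libraries per genotype. The 12 regions past the test ran from -0.98 (Il1a) to 0.90 (Tnf), and the regions not past it ran from -0.46 to 0.30.

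Across the 10 genes, 9 regions reached into a promoter window (1 kb upstream to 100 bp downstream of a start) at 8 genes. Of these, 8 were in all 4 lists, and only the Ptgs2 promoter passed the test. The other 11 regions past the test lay outside the promoter windows of the 10 genes, and 2 of them were in the promoter class of the neighbours Lst1 and Gm16181. The lower Il1rn region ended 1.03 kb before the gene start, just beyond the limit of 1 kb, so this split depends on that limit. The share of all promoter regions in the series that passed is not given. The split is therefore not shown to be particular to these genes. Of the 12 regions past the test, 5 kept their call under every alternative that tested them, at Tnf, Il1a, Il1rn and Il10 (2 regions), and none changed direction. Normal scores of the percentile ended the calls at 6 of the others, namely both Tnf regions nearer the gene, Il6, the Il10 intron, Il12b and Ptgs2. The number of regions called was 43 and 52 in WT against 45 and 51 in cKO, so the replicates differed by more than the genotypes.

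The 59 regions were also set beside all regions. Their class depends partly on the windows that chose them, and is given as a description. By their centres, 27 (45.8%) were intergenic, 17 (28.8%) intronic, 10 (16.9%) in promoters and 5 (8.47%) in exons, where all regions had 31.9%, 46.3%, 15.0% and 6.79%. The median width was 436 bp against 444 bp. Among the summit windows, AP-1 matches were found in 17 (28.8%, against 16.6% of all windows), NF-kB matches in 8 (13.6% against 4.85%) and C/EBP matches in 9 (15.3% against 12.3%). PU.1 and RUNX matches were found in 6 each (10.2%, against 11.0% and 8.38%), ISRE matches in 2 (3.39% against 3.90%) and a match to the cyclic AMP response element (CRE, TGACGTCA) in 1 (1.69% against 0.880%), at the downstream gained region of Il18. These shares were not tested.

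Genes that act with the 10 were described in the same windows, leaving out regions already counted. The 25 further cytokine genes had 117 regions, of which 1 was gained (0.855%) and 9 were lost (7.69%). Of the 80 in all 4 lists, 23 were higher and 13 lower in cKO (limma). Over all regions, 3.72% were gained and 7.25% lost, and 18.3% and 18.7% of those tested were higher and lower. A region at Il15, which encodes a cytokine that sustains natural killer cells (chr8:82419895-82420330), was at 34.5 and 47.2 in WT against 2.99 and 24.4 in cKO (limma, adjusted p = 0.0127). Regions also changed at Csf1, the macrophage growth factor gene (chr3:107777866-107778390), at 60.4 and 63.8 in WT against 6.27 and 47.2 in cKO, and at the alarmin gene Il33 (chr19:29948238-29948632), at 6.53 and 34.9 in WT against 44.8 and 55.4 in cKO (limma, adjusted p = 0.0304 and 0.00718).

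Among 16 cytokine receptor genes, including Il18bp, which encodes a soluble inhibitor of IL-18, 3 of 125 regions were gained (2.4%) and 10 were lost (8%). Of 80 in all 4 lists, 8 were higher and 16 lower. A region at Il18bp (chr7:102025239-102026037) fell from 52.3 and 68.0 in WT to 16.7 and 20.9 in cKO (limma, adjusted p = 0.00230). In the window of Il10rb, which encodes a chain of the IL-10 receptor, 1 region fell (58.2 and 65.7 against 27.7 and 17.5, chr16:91438037-91438516) and 1 rose (11.5 and 32.8 against 51.8 and 62.2, chr16:91413022-91413652), with adjusted p-values of 0.00679 and 0.00178 (limma).

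For 16 genes of the inflammasome, IL-1 signalling and cytokine processing, 7 of 151 regions were gained (4.64%) and 6 lost (3.97%), and 23 and 21 of 112 were higher and lower. A region in the window of Myd88, the adaptor of the IL-1 receptor (chr9:119328608-119329206), rose from 7.16 and 3.82 in WT to 45.4 and 59.3 in cKO (limma, adjusted p = 0.00154). Every other changed region in the Myd88 window was lower in cKO or lost. Among them, a promoter-class region (chr9:119340737-119341872) lay at 98.5 and 98.3 in WT against 97.1 and 97.3 in cKO (limma, adjusted p = 0.0301). A region in the window of the kinase gene Irak2 (chr6:113630212-113630862) fell from 77.6 and 78.5 to 27.9 and 39.3 (limma, adjusted p = 0.000453). Other regions in the Irak2 window were higher, lower, gained or lost. One in the window of Tnfaip3, an inhibitor of NF-kB signalling (chr10:19009168-19009782), fell from 85.0 and 83.9 to 47.6 and 45.9 (limma, adjusted p = 0.000949).

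For 18 genes of prostaglandin and nitric oxide metabolism and related oxidases, 2 of 148 regions were gained (1.35%) and 9 lost (6.08%), and 11 and 18 of 106 were higher and lower. Regions fell at Alox5ap, needed for leukotriene synthesis (chr5:149247017-149248012), from 69.3 and 74.7 to 10.4 and 46.2, and at Hpgds, a prostaglandin D synthase gene (chr6:65153579-65153902), from 43.3 and 50.1 to 0.806 and 18.7 (limma, adjusted p = 0.00634 and 0.00335). The promoter of Hpgd, which encodes the enzyme that inactivates prostaglandins (chr8:56294282-56295006), fell from 53.3 and 64.9 to 20.2 and 27.1 (limma, adjusted p = 0.00200). Summed over the 4 gene groups, 2.40% of 541 regions were gained and 6.28% lost, and 17.2% and 18.0% of 378 were higher and lower, beside 3.72%, 7.25%, 18.3% and 18.7% of all regions. These sums hide differences between the groups. Of 80 regions each, 23 were higher and 13 lower at the cytokine genes, but 8 and 16 at the receptor genes. The differences between groups were not tested.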

How the data were processed

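ATAC-seq peak lists of 4 BMDM libraries were analysed (WT and cKO, 2 each), grouped by title. Paired reads had been aligned by the authors to mm10 with Bowtie2 2.5.1 and peaks called in each library with Genrich at default settings. Read filters, removal of duplicates and a shift for the transposase were not given in the sources used here. The main value was the deposited signal value of each peak, which Genrich defines as an area of significance and which is not scaled between libraries. The deposited −log10 p-value at the summit was tabulated and not compared. Read depth is unknown, so no counting interval is given. Where nothing says how the replicates were raised, p-values measure the spread between these libraries.

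Peaks sharing 1 bp were merged into union regions (pandas 2.3.3, numpy 2.4.6), and a region took the strongest peak of each library. The centre of a region set its class, from GENCODE M21 basic transcripts. Regions in all 4 lists were tested with limma 3.58.1 (R 4.3.3, trend, 2 against 2 libraries, Benjamini-Hochberg adjustment over 44820 regions), tested on simulated data before use. Areas are not read counts, and a region enters only if called in every list. An exact permutation test of 2 against 2 libraries cannot go below p = 0.333 and was not used. Sequences were read with pysam 0.24.0. The motifs were AP-1, CRE, C/EBP, PU.1, ISRE, RUNX and NF-kB. Alternatives were stricter peaks, lists of equal length, call by 50% cover, windows of 10 and 50 kb, other scales of the area, a filter on weak regions, omission of each library and a replicate block.

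The text names, by rule, each gene's promoter region, its gained, lost and limma-passing regions, the 2 shared regions with the largest percentile change, and at most 3 regions of each related list; other regions named were chosen after their values were seen. The members and lists were chosen with earlier results of these data known.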

Additional observations from a re-analysis of the deposited data

How the results depend on the processing

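Among peaks above the median area, 1 region was gained and 1 lost, and 2 and 1 had both cKO percentiles higher and lower. Here limma called 2 higher and 0 lower, with 0 lower also at an unadjusted p below 0.05. Over all regions it called 3750 higher and 3988 lower of 22934. A region weak in either genotype cannot enter this setting, so its counts are partly built in. At the lower Il1a and Il1rn regions, cKO replicate 1 had areas of 548 and 614, under its median of 619. With lists of equal length, 1 region was lost and 17 had both cKO percentiles higher. Windows of 10 kb held 2 gained regions, 4 with both cKO percentiles higher and 4 higher by limma. Windows of 50 kb held 7 lost regions, 14 and 15 with both cKO percentiles higher and lower, and 14 and 8 higher and lower by limma. Normal scores of the percentile gave 3 higher by limma, and the cause was not tested. Regions above the median percentile gave 4 higher and 2 lower, where limma called 3929 higher and 4162 lower of 22410 over all. Omitting single libraries gave 5 to 7 gained and 3 to 8 lost regions, 7 to 20 and 8 to 24 with both cKO percentiles higher and lower, and 5 to 6 and 2 to 3 higher and lower by limma. Omission loosens the gained, lost and percentile rules, so rises in those counts are partly built in. The limma counts over all regions also fell with each omission. The difference in called regions was 0.5 and ran from -4 to 4.5. The replicate block gave 12 and 17 regions with cKO higher and lower in both same-numbered pairs, and 9 and 4 by limma. Comparing same-numbered pairs was also a looser rule than separating the genotypes. Same-numbered libraries shared only a number; their deviations correlated at 0.116 over 44820 regions. Calls not counted here changed by less than 1.5 times.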
